A study of Mus musculus with 18 samples.

Results

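The retinas of mice lacking Rpe65 (RPE65-/-) were compared with those of C57BL/6 controls at 6 months, the latest age of a series that also sampled 2 and 4 months. The comparison rests on 6 of the 18 arrays: knockout retinas 4, 5 and 6 and control retinas 1, 2 and 3, chosen by the genotype and age in their labels. Total RNA was hybridised to Affymetrix expression arrays, and the values cover 45101 probe sets, from which 18193 genes were measured. The labels name the knockout by its genotype alone and give no strain background for it, so the loss of Rpe65 cannot be told apart from other differences between the mouse lines. They also do not say whether each retina came from its own mouse. The p-values and standard errors take the spread between samples within groups from all 18 arrays, not from these 6 alone.

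RPE65 is the isomerase of the retinal pigment epithelium that turns vitamin A esters into the cis retinoid from which visual pigments are regenerated. Without it, rods and cones are starved of chromophore, and in mice cone opsins fail to reach the outer segment and cones degenerate while most rods persist for longer. Müller glia, which span the retina, are known to answer photoreceptor stress with a programme that includes intermediate filaments, growth factors and cytokine signalling.

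The deposited values are ratios in which 1 is a probe set's own median over the 18 arrays. For probe sets of low signal the divisor was a fixed value instead; these are called dim and made up 38.0% of genes. Array-scaled signals, which allow weak and strong genes to be told apart, were recovered from the ratios, with a common array median of 12.55. A gene passed the test where its adjusted p from limma, with Benjamini-Hochberg adjustment over all genes, was under 0.05. Errors of log2 differences are standard errors of that fit, and each difference is knockout minus control with 3 arrays per group.

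The 6 arrays carried the markers of retina: mean signals in controls were 1731 for Glul (Müller glia), 602 for Gad1 (inhibitory amacrine cells) and 309 for Prkca (rod bipolar cells). Pearson's correlation of log2 signals over 9096 genes was 0.969 to 0.977 within the knockouts, 0.958 to 0.970 within the controls and 0.925 to 0.952 between the groups. The actin 5' minus 3' difference ran from -0.96 to -0.84 in knockouts and from -1.09 to -0.89 in controls. Xist, the RNA of the inactive X chromosome, had ratios of 0.281 and 0.232 in knockout retinas 4 and 5 and of 41.4 in knockout retina 6, and lay between 39.6 and 43.6 in the controls, so 2 of the knockout arrays were male and the other 4 female. Adding sex to the fit left 125 genes (0.687%), and 114 of these belonged to the 205 that passed without it. Lens genes were uneven: their summed signal was 150, 1250 and 214 in knockout retinas 4, 5 and 6 and 10907, 210 and 3346 in control retinas 1, 2 and 3. All 17 measured lens genes had a negative difference, with a median of -3.03, yet 0 passed. With lens signal in the fit 113 genes passed (0.621%), and 107 of these belonged to the same 205. Pigment epithelium genes summed to between 6141 and 7921 in knockouts and between 4950 and 6126 in controls. The blood marker Alas2 was near the floor, with mean signals of 0.70 in knockouts and 2.30 in controls.

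Rpe65 itself was nearly absent from the knockout arrays. Its ratios were 0.156, 0.0348 and 0.0828 in knockout retinas 4, 5 and 6, against 12.5, 17.5 and 27.7 in control retinas 1, 2 and 3. The groups lay far apart, and the log2 difference was -7.89 ± 1.26 (limma adjusted p = 0.00628). The probe set is dim, and on the log2(signal + 16) scale, which damps weak signals, the difference was -3.56. Whether the probe set lies in the deleted stretch was not determined, so the values check the genotype labels only as far as the transcript is lost.

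At 6 months 205 genes passed (1.13% of 18193), of which 74 were higher (0.407%) and 131 lower (0.72%) in the knockouts. Over all genes the median log2 difference was -0.01. In each of the 205 genes the 2 groups were separate, and their median absolute difference was 1.12. Over all 18193 genes the groups were separate in 1393 with the knockouts higher and in 1605 with the knockouts lower. The 205 were chosen by their difference, so their separation adds no support. Of the 205, 18 were dim, and 23 also passed with the 6 arrays of 6 months fitted by themselves. The smallest rise was 0.45 (Rchy1) and the smallest fall -0.50 (Insl5). The largest rise was 5.74 (Gdpd3, whose control signals of 0.673 to 7.35 lay under the array median; 2.68 on the log2(signal + 16) scale) and the largest fall that of Rpe65. Among the genes that are not dim the largest fall was that of Opn1sw, 43.6-fold.

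**Figure D1:**
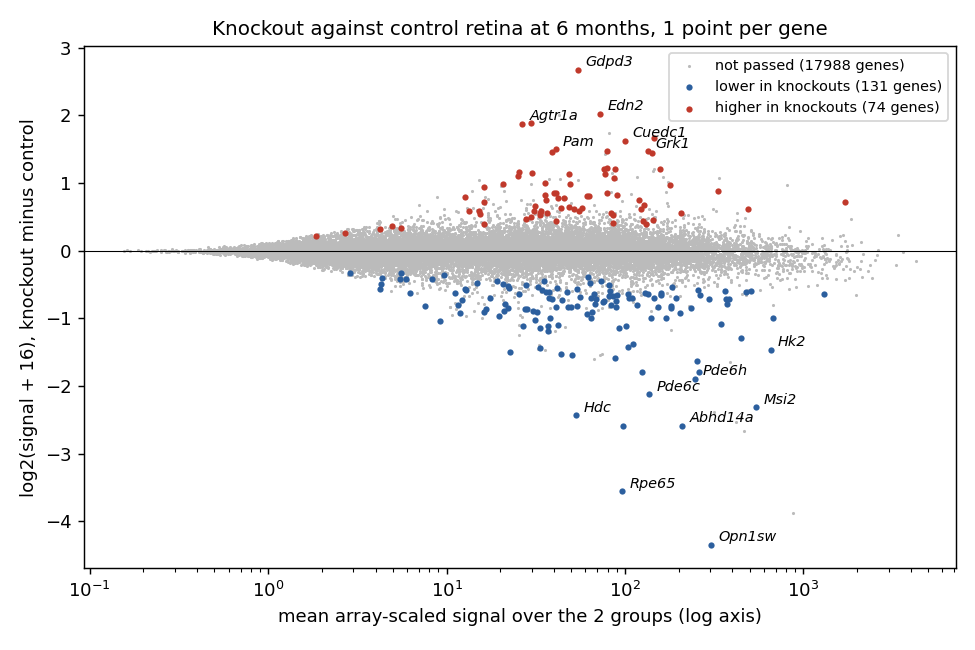
Each point is a gene at 6 months: the horizontal log axis gives its mean array-scaled signal over the 6 arrays and the vertical axis the difference of log2(signal + 16), knockout minus control. Red and blue points are the 74 higher and 131 lower genes that passed on the log2 ratio, grey points did not pass, and Opn1sw lies lowest at -4.34.

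Genes of cones, the photoreceptors of daylight and colour vision, held several of the largest falls. Of 13 measured cone genes 6 fell, against 0.72% of all genes, and 0 rose. The median log2 difference was -1.29 against -0.01 over all genes, and the list was drawn up with earlier results of these arrays known. Opn1sw encodes the short-wavelength cone opsin. Its ratios were 0.0476, 0.0677 and 0.0448 in knockout retinas 4, 5 and 6 and 2.92, 1.83 and 2.23 in control retinas 1, 2 and 3. No knockout came near a control, and the difference was -5.45 ± 0.25 (limma adjusted p = 1.35e-07). A further probe set of Opn1sw gave -3.90.

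The cone phosphodiesterase, which breaks down cyclic GMP once light has activated the cascade, fell in both of its subunits. Pde6c, the catalytic subunit, had ratios of 0.296, 0.357 and 0.311 in the knockouts and 2.04, 1.60 and 1.82 in the controls, a difference of -2.50 ± 0.25 (limma adjusted p = 0.000171). Pde6h, the inhibitory subunit, had 0.287, 0.359 and 0.371 against 1.66, 1.32 and 1.26, a difference of -2.06 ± 0.21 (limma adjusted p = 0.000172). In both genes the 3 knockouts sat close together and well below the lowest control. Gnat2, the cone transducin alpha subunit that couples opsin to the phosphodiesterase, had 0.417, 0.425 and 0.405 against 1.67, 1.32 and 1.27 (-1.76 ± 0.18, limma adjusted p = 0.00015). Arr3, the cone arrestin that shuts off activated opsin, had 0.332, 0.473 and 0.387 against 1.81, 1.39 and 1.34 (-1.93 ± 0.25, limma adjusted p = 0.00112). Kcne2, a potassium channel subunit, had 0.471, 0.579 and 0.674 against 1.79, 1.51 and 1.19 (-1.38 ± 0.18, limma adjusted p = 0.00108). The groups were separate in each of these genes, and 6 cone genes also fell with sex in the fit, with lens signal in the fit and without control retina 3. With the females alone, and with the 6 arrays of 6 months fitted by themselves, 4 did.

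The other cone genes did not pass. Opn1mw, the middle-wavelength opsin, had ratios of 0.470, 0.661 and 0.608 in knockouts and 1.80, 1.46 and 1.05 in controls, without overlap, but its difference of -1.29 ± 0.32 missed the threshold (limma adjusted p = 0.0943). On the log2(signal + 16) scale it passed at -1.17 (limma adjusted p = 0.0199), which brings the count there to 7 of 13, where 1.71% of all genes passed. The channel subunit Cngb3 (-0.74), the transducin gamma subunit Gngt2 (-0.41), the transcription factors Thrb (-0.37) and Rxrg (-0.21) and the exchanger Slc24a2 (-0.17) had negative values, with overlapping groups. Gnb3, the transducin beta subunit, was the 1 gene with a positive value: its ratios were 1.41, 1.30 and 1.38 in knockouts and 0.903, 0.847 and 1.24 in controls, without overlap (0.47 ± 0.22, limma adjusted p = 0.529). In bulk retina, fewer cones and less RNA per cone cannot be told apart.

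**Figure D2:**
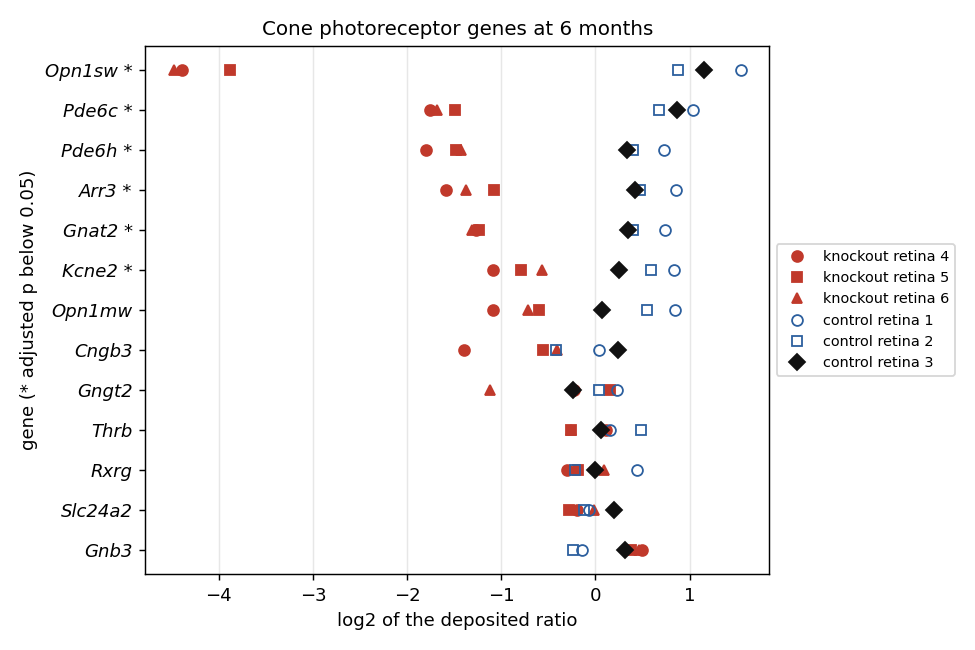
The 13 measured cone genes are shown with the log2 of the deposited ratio on the horizontal axis and 1 symbol per array, red for knockouts, blue outlines for control retinas 1 and 2 and a black diamond for control retina 3. Asterisks mark the 6 genes that passed; in these the knockouts lie to the left of all controls, furthest in Opn1sw.

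Because the cone genes fell together, the windows around their annotated starts are shown, from 250 bases before to 50 bases after the start, as RefSeq gives them for GRCm38.p6. They were searched on both strands for TAATCC, the core that the photoreceptor factor Crx binds, and a match is in capitals. Of the 6 genes that fell, 5 had a window in the table, and the sequences of the 4 largest falls among them are chr6:29380464-29380763 (minus strand) for Opn1sw, chr6:136954273-136954572 (plus) for Pde6h, chrX:100605247-100605546 (plus) for Arr3 and chr3:108092816-108093115 (plus) for Gnat2.
Opn1sw: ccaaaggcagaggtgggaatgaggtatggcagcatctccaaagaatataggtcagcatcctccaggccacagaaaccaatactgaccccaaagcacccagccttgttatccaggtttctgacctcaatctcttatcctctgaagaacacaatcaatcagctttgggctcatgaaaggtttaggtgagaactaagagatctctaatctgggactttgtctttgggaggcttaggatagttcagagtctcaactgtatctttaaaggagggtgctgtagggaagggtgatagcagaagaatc
Pde6h: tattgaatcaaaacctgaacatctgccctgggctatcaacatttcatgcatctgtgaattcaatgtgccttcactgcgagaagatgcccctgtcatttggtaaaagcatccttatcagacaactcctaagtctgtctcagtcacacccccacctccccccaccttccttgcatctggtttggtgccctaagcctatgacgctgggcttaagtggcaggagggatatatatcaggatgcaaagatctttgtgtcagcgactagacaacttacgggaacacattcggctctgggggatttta
Arr3: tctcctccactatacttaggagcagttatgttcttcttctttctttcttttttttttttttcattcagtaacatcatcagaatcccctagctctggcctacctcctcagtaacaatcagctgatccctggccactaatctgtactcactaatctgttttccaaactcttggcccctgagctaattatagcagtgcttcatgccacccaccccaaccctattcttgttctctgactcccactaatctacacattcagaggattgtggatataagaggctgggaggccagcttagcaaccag
Gnat2: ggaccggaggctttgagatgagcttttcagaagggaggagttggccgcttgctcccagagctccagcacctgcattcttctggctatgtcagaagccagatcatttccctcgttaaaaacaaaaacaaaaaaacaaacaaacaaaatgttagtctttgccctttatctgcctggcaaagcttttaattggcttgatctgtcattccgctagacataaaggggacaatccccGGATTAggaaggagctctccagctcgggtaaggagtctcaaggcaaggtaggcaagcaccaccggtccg
Gnat2 held the 1 match among the 5 genes, on the opposite strand and starting 19 bases before the annotated start. Over all 32851 windows of this length 7.06% held the core. A match is a description of letters, and the windows without one say nothing of Crx. Crx itself had ratios of 0.789, 0.766 and 0.749 in the knockouts and 1.31, 1.04 and 1.03 in the controls, a difference of -0.55 ± 0.14 that did not pass (limma adjusted p = 0.106) and did on the log2(signal + 16) scale (-0.54, limma adjusted p = 0.026).

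Rods make up most of the retina's photoreceptors, and their genes moved little. Of 14 measured rod genes 1 rose and 1 fell, with a median of -0.28, where 1.13% of all genes passed in either direction. In 10 of the 14 all knockouts lay below all controls, against 1605 of 18193 genes (8.82%) over the whole set. The phosphodiesterase subunits Pde6b (-0.28 ± 0.11) and Pde6g (-0.28 ± 0.12), the channel subunit Cnga1 (-0.33 ± 0.14) and the rod fate factor Nrl (-0.40 ± 0.13) were of this kind, and none of them passed. Reep6, a membrane protein of rods, had ratios of 0.877, 0.865 and 0.845 in knockouts and 1.52, 1.33 and 1.22 in controls. Its difference of -0.65 ± 0.14 passed narrowly (limma adjusted p = 0.0449) and did not pass without control retina 3 (0.0627).

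Gnb1, the transducin beta subunit of rods, rose. Its ratios were 1.19, 1.24 and 1.12 in knockouts and 0.770, 0.746 and 0.626 in controls (0.73 ± 0.12, limma adjusted p = 0.00943). A further probe set of Gnb1 of nearly the same signal gave a much larger difference of 3.13, so the size of the rise depends on the probe set.

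Genes of phototransduction and the outer segment that rods and cones share followed the rod pattern. Of 25 measured, 1 rose and 0 fell, and the median was -0.24. On the log2(signal + 16) scale 1 rose and 4 fell, where 1.71% of all genes passed. In 12 the knockouts lay below all controls without overlap, against 8.82% of all genes. The 1 that rose was Grk1, the opsin kinase that begins the shut-off of activated pigment. Its ratios were 2.03, 2.28 and 1.84 in knockouts against 0.828, 0.709 and 0.424 in controls (1.70 ± 0.37, limma adjusted p = 0.0442), and without control retina 3, its lowest control, the adjusted p was 0.156. Of 11 photoreceptor transcription factors Mef2c fell, from control ratios of 1.55, 1.36 and 1.11 to 0.752, 0.781 and 0.793 (-0.77 ± 0.13, limma adjusted p = 0.00858), and its 4 further probe sets gave -0.50 to -1.02. With sex in the fit Mef2c did not pass (0.0562). On the log2(signal + 16) scale 3 of the 11 factors fell. Of 16 genes of the photoreceptor ribbon synapse 0 passed, with a median of -0.21. Among 23 genes of the visual cycle and retinoid handling Rpe65 was the 1 that passed. Rbp3, the retinoid carrier of the interphotoreceptor space, had ratios of 0.856, 0.829 and 0.791 in knockouts against 1.30, 1.39 and 1.23 in controls and missed the threshold (-0.66 ± 0.15, limma adjusted p = 0.0622).

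The stress programme of glia and photoreceptors was split by 1 control. Of 22 measured genes of gliosis and retinal stress 1 rose, against 0.407% of all genes, and 0 fell, with a median of 0.23. The difference was positive in 12 and negative in 10. Knockouts lay above all controls in 4 and below all controls in 2, against 1393 and 1605 of all 18193 genes. The gene that rose was Edn2, an endothelin that stressed photoreceptors are known to release. Its ratios were 1.92, 1.74 and 1.50 in knockouts against 0.0891, 0.0833 and 0.864 in control retinas 1, 2 and 3 (3.20 ± 0.69, limma adjusted p = 0.0449). All knockouts were above all controls, but control retina 3 stood about midway on the linear scale, and without it the adjusted p was 0.00019. With sex as a covariate Edn2 did not pass (0.17).

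Some other genes of that list, all with a positive difference, had the same arrangement without passing. Gfap, the filament protein of reactive glia, had ratios of 1.37, 1.32 and 2.45 in knockouts, 0.460 and 0.397 in control retinas 1 and 2, and 1.58 in control retina 3, which is above 2 of the knockouts (1.31 ± 0.53, limma adjusted p = 0.428). Fgf2, a survival factor for photoreceptors, had 1.66, 2.33 and 2.06 against 0.319, 0.581 and 1.05, without overlap (1.78 ± 0.66, limma adjusted p = 0.353; 0.0262 on the log2(signal + 16) scale). Stat3, which carries the signal of LIF and related cytokines, had 1.17, 1.22 and 1.05 against 0.659, 0.670 and 0.955 (0.61 ± 0.16, limma adjusted p = 0.11). Osmr, a receptor of that pathway, had 1.25, 1.46 and 1.12 against 0.580, 0.376 and 1.23 (0.98 ± 0.39, limma adjusted p = 0.407). In each of these genes control retina 3 was the highest control, and in Gfap and Osmr it lay within the range of the knockouts. Without it Stat3 also passed (limma adjusted p = 0.0253), the list held 2 genes that rose, and its median was 0.63. That array was singled out by its stress genes in these same data. These changes, and that of Edn2, therefore do not test the stress list. On the log2(signal + 16) scale with all arrays 3 genes of the list rose.

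**Figure D3:**
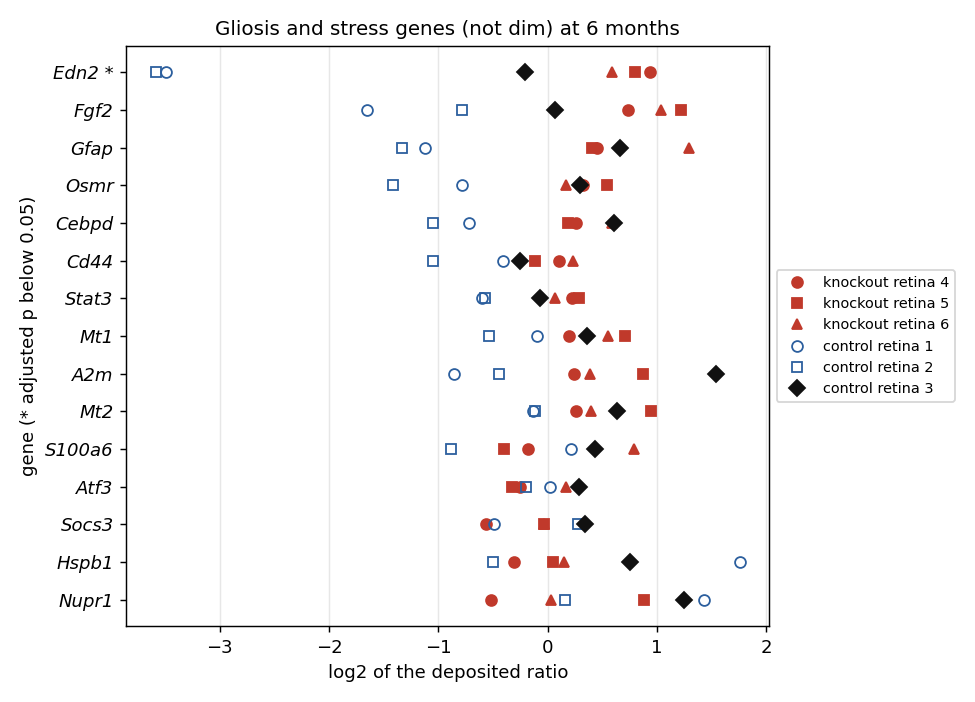
The gliosis and stress genes that are not dim are shown with the log2 of the deposited ratio on the horizontal axis and 1 symbol per array, as for the cone genes; the asterisk marks Edn2, which passed. Control retina 3, the black diamond, lies to the right of control retinas 1 and 2 in most of these genes. It lies among or beyond the knockouts in several, such as Gfap, Osmr, Cebpd and A2m. Over all 22 measured genes of the list, dim ones included, it was above all knockouts in 12.

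Control retina 3 was looked at because it was already known to stand apart in stress genes of these data. Its place in the stress list is thus a description and not a test. It was the highest of the 3 controls in 19 of the 22 stress genes, against 30.7% of all genes. The same held for 17 of 22 interferon response genes, 12 of 15 antigen presentation genes, 10 of 14 complement genes and 14 of 23 genes of microglia and macrophages, of which 15 were dim. The mean log2 ratio of the stress list was 0.34 in control retina 3, -0.86 and -1.01 in control retinas 1 and 2, and -0.50, -0.45 and -0.11 in knockout retinas 4, 5 and 6. For the interferon list it was 0.67 in control retina 3, -0.05 and -0.25 in the other controls, and -0.63 to -0.18 in the knockouts. The summed signal of the microglia list was 695 in control retina 3, 420 and 382 in control retinas 1 and 2, and 495 to 580 in the knockouts. Control retina 3 was thus above every knockout in the mean log2 ratio of the stress and interferon lists and in the summed signal of the microglia list. In the summed signal of the stress list it stood at 1486, below knockout retina 5 at 1545. Gene by gene, it was above all knockouts in 12 of 22 stress, 17 of 22 interferon and 13 of 23 microglia genes. Over all genes the share was 30.3%. For pigment epithelium genes the mean log2 ratio of control retina 3, 0.32, was also the highest of the 6 arrays (-0.46 to -0.02 in the others). Its summed signal of 6126 lay within their span. The list holds Rpe65 itself, which lowers the list's mean in every knockout and raises it in every control. A mean without Rpe65 was not computed, so this rank is not shown to be a trait of control retina 3. The part of immune or glial cells in these values was not tested.

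In 3 of the immune lists the sign of the median turned when that array was left out. The median was -0.09 for microglia, -0.07 for complement and -0.23 for antigen presentation with all arrays, and 0.21, 0.11 and 0.09 without control retina 3. The interferon list stayed negative, with -0.52 and -0.22. With limma on all arrays 0 genes of these 3 lists passed, and on the log2(signal + 16) scale 1 complement gene did. Irf7, a regulator of interferon genes, was the 1 of 22 interferon genes that fell, with ratios of 1.01, 0.933 and 0.901 in knockouts and 1.46, 1.70 and 2.31 in controls (-0.92 ± 0.18, limma adjusted p = 0.0261), and it did not pass without control retina 3 (0.0961). The complement factor Cfi, at 1.07, 1.37 and 1.33 in knockouts against 0.454, 0.249 and 0.812 in controls, did not pass with all arrays (limma adjusted p = 0.112) and passed without control retina 3 (0.0253).

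Over the whole comparison, 150 genes (0.824%) passed without control retina 3, 63 higher and 87 lower, and 129 of them were among the 205. All 205 kept their direction. Of the genes named from the lists or by rank, Irf7, Ppcdc, Apela, Grk1, Fos, Gsr, Reep6, Pfkfb3 and Pdia6 did not pass with sex in the fit, with limma adjusted p from 0.0733 (Irf7) to 0.23 (Pdia6); Edn2, Mef2c, Sc5d and Kcnj9 are given with their own values. Among the 74 higher genes, control retina 3 was the control nearest to the knockouts in 36, control retina 1 in 23 and control retina 2 in 15. Among the 131 lower genes control retina 2 was nearest in 68, control retina 3 in 53 and control retina 1 in 10. Control retina 1 was the outlying control in the lists of energy supply: it was the highest control in 23 of 25 oxidative phosphorylation genes and 16 of 19 glycolysis genes, against 44.4% of all genes.

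**Figure D4:**
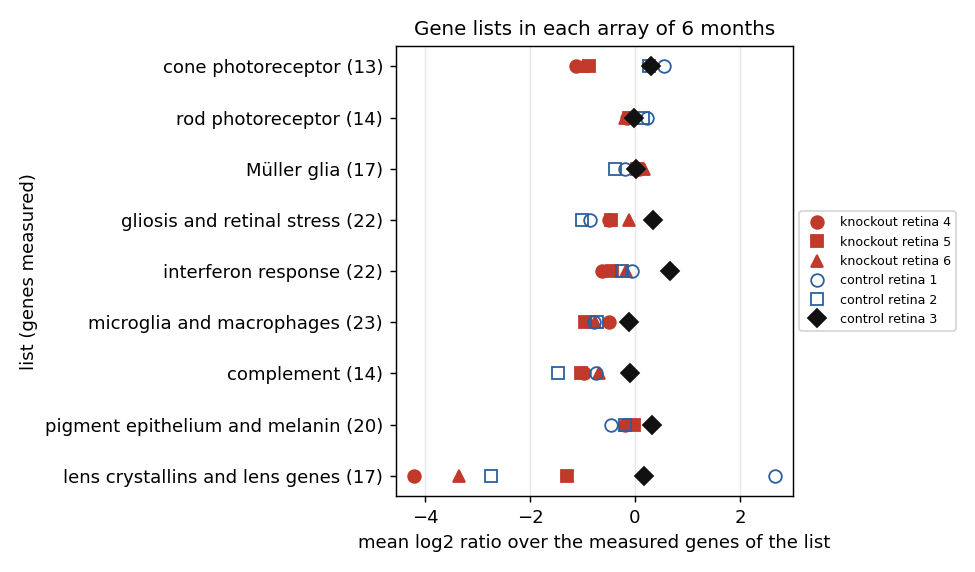
For 9 gene lists, the horizontal axis gives the mean log2 ratio over the measured genes in each of the 6 arrays of 6 months, with symbols as in the plots of single genes. Knockouts lie below all controls in the cone list, and lens genes spread from -4.21 to 2.67. Control retina 3 is the rightmost array in the stress, interferon, microglia, complement and pigment epithelium lists. The pigment epithelium list holds Rpe65 itself, which lowers its mean in the knockouts.

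Of 17 measured genes of Müller glia 1 rose, against 0.407% of all genes, and 0 fell, and the median was 0.22. A positive difference was seen in 14, against 8916 of all 18193 genes. Control retina 3 was the highest control in 12 of the 17, and without it the median was 0.35. The 1 that passed, Spc25, is a kinetochore protein that was listed for its presence in Müller glia (0.64 ± 0.14, limma adjusted p = 0.0459), and it did not pass without control retina 3 (0.159). Knockouts lay above all controls in 5 genes of the list, against 1393 of all 18193 genes. Glul, the glutamine synthetase of these cells, differed by -0.02 in the probe set used and by 0.62 in a further one, and the potassium channel gene Kcnj10 by 0.64 ± 0.22 (limma adjusted p = 0.284).

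In the inner retina 0 genes passed with limma among 15 of rod and ON bipolar cells, 9 of OFF bipolar cells, 8 of horizontal cells, 17 of amacrine cells and 15 of ganglion cells. Their medians were 0.05, 0.13, -0.17, 0.02 and 0.08, and on the log2(signal + 16) scale 1 gene passed, in the ganglion cell list. A miss of the threshold does not show that these cells were alike in the groups.

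Glycolysis, on which photoreceptors lean for energy, had 2 genes of 19 measured that fell, against 0.72% of all genes, with a median of -0.13. Hk2, the hexokinase of photoreceptors, had ratios of 0.664, 0.664 and 0.620 in knockouts and 2.45, 1.58 and 1.63 in controls (-1.51 ± 0.17, limma adjusted p = 0.000419). Pfkfb3, which makes the activator of phosphofructokinase, had 0.647, 0.636 and 0.615 against 1.75, 1.07 and 1.21 (-1.06 ± 0.23, limma adjusted p = 0.042), with a further probe set at -0.41, and it did not pass without control retina 3 (0.0834). In both, the knockouts agreed closely and control retina 1 was the highest array. None of 25 oxidative phosphorylation and 17 citrate cycle genes passed, with medians of -0.05 and -0.04. Among lipid genes Sc5d of cholesterol synthesis (-0.93 ± 0.16) and Elovl2, which elongates the long polyunsaturated fatty acids of outer segments (-0.89 ± 0.18), fell, though 2 further probe sets of Sc5d gave 0.23 and 0.01. Sc5d did not pass with sex in the fit (limma adjusted p = 0.0504), and Elovl2 did not pass without control retina 3 (0.059).

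The lists of cell death and stress response held single changes, where 1.13% of all genes passed in either direction. A single gene does not mark out its list. Bcl2, an inhibitor of apoptosis, fell: its ratios were 0.990, 1.01 and 0.613 in knockouts and 1.83, 1.55 and 2.38 in controls (-1.15 ± 0.22, limma adjusted p = 0.0187), its 4 further probe sets gave -1.04 to -1.49, and it did not pass without control retina 3 (0.0834). The other 34 measured cell death genes did not pass. Fos, an immediate early gene, had 0.497, 0.642 and 0.575 against 1.32, 1.01 and 1.09 (-0.99 ± 0.20, limma adjusted p = 0.0268; 0.0731 without control retina 3), the 1 of 18 that passed. Gsr, glutathione reductase, rose (0.62 ± 0.12) as the 1 of 23 antioxidant genes, and Pdia6, a disulfide isomerase of the endoplasmic reticulum, fell (-0.82 ± 0.18) as the 1 of 28 genes of the unfolded protein response. Gsr and Pdia6 also did not pass without control retina 3. None of 15 heat shock, 29 primary cilium transport, 27 growth factor and 21 clock genes passed.

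Signalling peptides and their enzymes held 5 genes of 35 measured that rose and 0 that fell, while the median of the list was -0.21. Over all genes 0.407% passed as higher and 0.72% as lower. Pam, which amidates peptide hormones, had ratios of 2.64, 1.50 and 3.50 in knockouts and 0.620, 0.460 and 0.363 in controls (2.35 ± 0.32, limma adjusted p = 0.00163). Trhde, which degrades thyrotropin-releasing hormone, had 2.04, 1.49 and 1.67 against 0.526, 0.329 and 0.238 (2.31 ± 0.29, limma adjusted p = 0.00105). The groups were far apart in both, with knockout retina 5 the lowest knockout. Agtr1a, an angiotensin receptor, had 5.24, 4.24 and 5.51 against 0.217, 0.0637 and 0.372 (4.85 ± 0.69, limma adjusted p = 0.00255). Cck, the cholecystokinin precursor of some amacrine cells, rose less (0.92 ± 0.18), as did Apela, an apelin receptor ligand (1.38 ± 0.28), and Cck did not pass without control retina 3 (limma adjusted p = 0.1). Tac2, the neurokinin B precursor, was not on the list and is named after its value was seen; it fell, with 0.810, 0.658 and 0.633 against 1.74, 1.42 and 1.29 (-1.08 ± 0.16, limma adjusted p = 0.00378). Of 20 genes of biogenic amines 1 fell, Hdc, the histidine decarboxylase that makes histamine, with 0.352, 0.0627 and 0.154 against 3.79, 3.19 and 2.92 (-4.45 ± 0.58, limma adjusted p = 0.00115).

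Of the 15 largest rises by log2(signal + 16), Gdpd3, a phosphodiesterase of lysophospholipids, came first. Its ratios were 2.88, 3.16 and 2.83 in knockouts and 0.0435, 0.206 and 0.0189 in controls (5.74 ± 0.82, limma adjusted p = 0.00255). Sox30, a transcription factor known from testis, had 2.22, 1.81 and 1.87 against 0.0975, 0.128 and 0.138 (4.03 ± 0.75, limma adjusted p = 0.0179; 0.0524 without control retina 3). In both genes the controls were low and the knockouts formed a tight group. Nudt6, which overlaps Fgf2 on the opposite strand, had 1.44, 1.22 and 1.49 against 0.277, 0.393 and 0.500 (1.86 ± 0.23, limma adjusted p = 0.000971), and a further probe set gave 0.49. Iqgap1, a scaffold of the cytoskeleton, rose by 1.52 ± 0.14, and its 3 further probe sets that are not dim gave 0.69 to 1.39. Med1, a subunit of the Mediator complex, rose by 1.52 ± 0.14, but its 3 further probe sets that are not dim gave -0.09, 0.31 and 0.99. Abhd14b (1.64), Cuedc1 (1.97), Tmem181a (1.46), the potassium channel gene Kcnj9 (1.36) and Cfap54, a protein of motile cilia (2.10), were the remainder beside Edn2, Agtr1a, Pam, Grk1 and Trhde. Cuedc1 and Kcnj9 differed between probe sets: further sets gave 0.32 and -0.15 for Cuedc1 and 1.34, -1.36 and -0.11 for Kcnj9. Kcnj9 did not pass without control retina 3 (limma adjusted p = 0.0765) or with sex in the fit (0.0842).

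The 15 largest falls besides Rpe65 held 5 cone genes, which are given above, and Hk2 and Hdc. Abhd14a, a hydrolase, had ratios of 0.250, 0.268 and 0.336 in knockouts and 2.56, 2.12 and 1.87 in controls (-2.94 ± 0.17, limma adjusted p = 9.54e-07), and a further probe set gave -2.06. Msi2, an RNA-binding protein that photoreceptors express, had 0.366, 0.307 and 0.325 against 2.25, 1.65 and 1.49 (-2.42 ± 0.22, limma adjusted p = 5.23e-05). Its 7 further probe sets lay between -0.43 and 0.54, so the fall was seen in 1 probe set of 8. Esco1, a cohesin acetyltransferase, fell by 1.97 on the log2 scale in the set used and stood at 0.37 in the other. Ppcdc, an enzyme of coenzyme A synthesis, differed by -3.65 ± 0.64, with -0.58 and 0.15 in further sets. Gpr135, an orphan receptor, differed by -2.41 ± 0.25, with -1.25 and, in a dim set, 1.74. Glb1l3 (-2.12), Tmem18 (-2.21) and Fxyd6, a modulator of the sodium pump (-2.32), each had 1 probe set.

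The 6-month differences were largely present at the earlier ages, in the fit without sex. By Xist, every knockout array of 2 and 4 months was male. Control retinas 9 and 10 of 2 months and 24 of 4 months were female. Knockouts thus leaned to males at each age, and the part of sex in the likeness between ages was not tested. Array medians before scaling were also higher at 6 months than at the earlier ages. Of the 205 genes 123 (60.0%) also passed at 2 months and 130 (63.4%) at 4 months, where 262 (1.44%) and 224 (1.23%) of all genes passed, and 103 passed at all 3 ages. In 194 of the 205 the difference had the same sign at 2, 4 and 6 months, against 7280 of all 18193 genes. The median of the 74 higher genes was 0.91 at 2 months, 1.13 at 4 months and 1.19 at 6 months, and that of the 131 lower genes was -0.92, -0.92 and -1.09; since these genes were chosen at 6 months, the last value of each is favoured by the choice.

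Whether a gene's difference at 6 months was another than the mean of those at 2 and 4 months was tested for every gene. With limma 0 of 18193 genes passed (lowest adjusted p 0.257), and 728 (4.00%) had an unadjusted p under 0.05. On the log2(signal + 16) scale 1 gene passed, Pttg1, which encodes securin. Its knockout minus control difference was -1.26 at 2 months, -5.69 at 4 months and -0.59 at 6 months on the ratio scale, so the 4-month value sets the contrast. Opn1sw had differences of -3.59 ± 0.25 at 2 months, -4.91 ± 0.25 at 4 months and -5.45 ± 0.25 at 6 months, and its contrast of -1.20 ± 0.31 did not pass (limma adjusted p = 0.804). The stress list had medians of 0.71 at 2 months and 0.79 at 4 months against the 0.23 at 6 months. The 55 genes that passed at 6 months alone are not shown to be particular to that age.

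**Figure D5:**
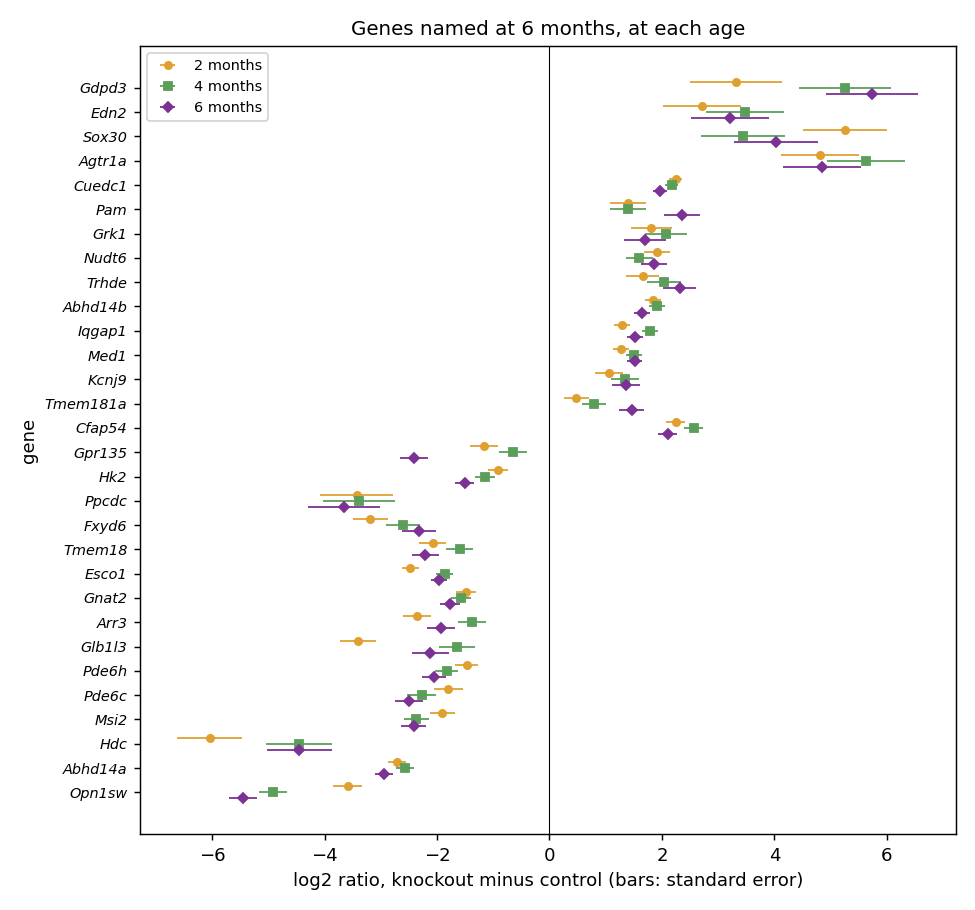
For the 30 genes named by rank, the horizontal axis gives the log2 ratio difference, knockout minus control, with bars for the standard error, at 2 months (circles), 4 months (squares) and 6 months (diamonds). All 30 lie on the same side of 0 at the 3 ages, with Opn1sw furthest left at 6 months.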

How the data were processed

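RNA of 18 retinas was measured on arrays, 1 array per retina. The deposited values are ratios with 1 value per probe set and array. Per the submitters' processing notes RMA (18 samples) and GCOS (16 samples) were used; their versions, order and the genome build are not given in the sources used here. By their spacing the deposited ratios are whole multiples (within 0.02 of a step) of a step per array. Values under 0.01 were set to 0.01. The signals behind the ratios were recovered from this spacing. Before array scaling their medians were 32.8 to 45.8 on the 6 arrays of 6 months and 6.8 to 14.3 on those of 2 and 4 months. The level of signal therefore went with age, and its part in comparisons between ages was not tested. Of the probe sets 34945 named 1 gene and were kept, 932 named several, 9160 named none and 64 were controls; a gene was read from its probe set of highest mean signal. With limma 3.58.1 in R 4.3.3, log2 ratios of all 18 arrays were fitted with a mean per group (12 residual degrees of freedom), with two-sided moderated tests. The script was tested on simulated data. The 6-month effect was also tested against the mean of the 2- and 4-month effects.

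Members and gene lists (45 lists) were chosen with earlier results of these data known. Named genes are Rpe65, the 15 largest rises and 15 largest falls on the log2(signal + 16) scale among genes that passed without overlap (clones and gene models without a proper symbol passed over), and members of the lists. Sex was read from Xist (log2 ratio above 2). Alternatives were the pseudocount scale, a filter that leaves out the dimmest 40%, other normalizations and probe set rules, weights, sex, lens and pigment epithelium covariates, females alone at 6 months and leaving out each array. Promoter windows came from RefSeq. Precision is limited by how many arrays there were. Groups of 3 are too small for a test of single outlying arrays.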

Additional observations from a re-analysis of the deposited data

How the results depend on the processing

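The 205 genes that passed (74 higher, 131 lower) became 311 (113 and 198) on log2(signal + 16), 315 with array weights (123 higher), 125 with sex as a covariate (75 lower), 113 with lens signal as a covariate (36 and 77), 70 with Benjamini-Yekutieli adjustment (25 and 45), 66 with the female arrays alone at 6 months (13 and 53, with 1 knockout array, assumed to vary like the other groups) and 27 with only the 6 arrays of 6 months (9 and 18). Leaving out each array in turn gave 103 to 150 genes, 32 to 63 higher and 65 to 102 lower; without knockout retina 6 there were 103, without control retina 1 117, without knockout retina 4 131 and without knockout retina 5 136. Without control retina 3 on log2(signal + 16), an alternative chosen after seeing the data, 282 passed, 112 of them higher. The other settings (quantile normalization, centring, the mean of all probe sets, no _s_at or _x_at sets, a trended robust prior, a filter on dim genes, a pigment epithelium covariate, sex on log2(signal + 16)) gave 140 to 276. The cause of these shifts was not tested. The 6-month contrast with earlier ages had 1 gene on log2(signal + 16) and 1 with the dimmest 40% left out, Pttg1 in both, and 0 with sex as a covariate. Elsewhere at most 2 passed: Pttg1 with quantile normalization, the mean of all probe sets, sex on log2(signal + 16) or no control retina 3 on that scale, Insl5 with quantile normalization or centring, Tcf15 with females alone, Glycam1 and Gm12758 without control retina 1, and Gpr83 without control retina 3.

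Rpe65 stayed lower throughout, from -8.41 to -7.32 without single arrays, and did not pass with Benjamini-Yekutieli adjustment (-7.89, adjusted p = 0.0652), with females alone (-7.78, 0.161), with sex as a covariate on log2(signal + 16) (-2.49, 0.163) or without control retina 3 on that scale (-3.28, 0.0825). The 30 genes named by rank gave 659 values over 22 settings: 582 kept their direction and passed, 77 kept their direction without passing and 0 reversed. Of the 30, 25 passed without each array in turn. No paired analysis was possible because the replicate numbers of the 6-month groups (4, 5, 6 and 1, 2, 3) share none.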

Other observations

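In the order of measured genes along the chromosomes given by the RefSeq table, 69 of 203 placed genes that passed (34.0%) had another such gene among the 10 measured genes on either side, and over all 18032 placed genes 18.0% had one. Chromosome 9 held 31 such genes of 1002 tested (3.09%), the highest share of any chromosome, against 1.10% on chromosome 3, which carries Rpe65, and 0.138% on chromosome 15. On chromosome 9, H2ax (-0.88), Rps25 (-1.01), Ddx6 (-0.90), Arcn1 (-0.75) and Tmem25 (-1.28) were lower within a run of 16 measured genes; Rps25, Arcn1 and Tmem25 did not pass without control retina 3 or with sex in the fit. Also on chromosome 9, the overlapping genes Abhd14a (-2.94) and Abhd14b (1.64) differed in opposite directions. On chromosome 11 the neighbours Lsm11 (1.25), Thg1l (1.93) and Sox30 (4.03) were all higher, of which Lsm11 and Sox30 did not pass without control retina 3, and on chromosome 12 the neighbours Gpr135 (-2.41) and L3hypdh (-1.88) were both lower. These groups were singled out after their values were seen.

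Vamp3, a vesicle fusion protein (-1.61 ± 0.12, limma adjusted p = 2.12e-05), Ndufa12, a complex I subunit outside the list used above (-1.02 ± 0.13, 0.000871), and Samd11, a photoreceptor repressor protein (-1.34 ± 0.15, 0.000301), were lower, and Igfbp2, a carrier of insulin-like growth factors (1.31 ± 0.19, 0.00314), and Abca1, a cholesterol exporter (1.07 ± 0.16, 0.00446), were higher. These genes were likewise named after their values were seen. Vamp3 had 4 further probe sets and Samd11 had 1, and their values are not given here.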
